A study of Mus musculus with 16 samples.

Results

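The genes of DNA replication and mitosis, 47 of the 41214 genes counted, were followed through mouse T-ALL, an acute leukaemia of T lineage cells. They were taken as the rows whose Ensembl identifier belongs to a listed mouse symbol. The 22 S-phase genes were kept apart from the 25 mitotic genes. The S-phase genes comprise 15 of replication licensing and the replication fork, 4 of checkpoint and repair, and 3 E2F transcription factors. The mitotic genes comprise 7 kinases and cyclins, 6 of the spindle checkpoint and anaphase, 8 of the kinetochore, spindle and motors, 2 chromosome proteins and 2 transcription factors. All 47 passed the filter on low counts that left 17470 genes to test.

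Counts came from 16 libraries, in 8 groups of 2 mice of the C57Bl6 strain. With p53 ko and ICN, the intracellular active form of Notch, the groups were deltaPOZ-Lck, deltaPOZ-Vav and Miz1 wt. The same 3 Miz1 states made up the ICN groups with p53 wt. Without ICN, deltaPOZ-Vav and Miz1 wt were sequenced, both with p53 ko, so the effect of ICN could be read among p53-ko leukaemias only. DeltaPOZ stands for a Miz1 protein that lacks the POZ domain, with which this transcription factor pairs up and holds on to chromatin. Lck and Vav are suffixes in the titles that the labels do not explain. The labels used here do not give the organ sampled, the age or sex of the mice, or how ICN was brought in. They speak of separate mice, and the error behind each p-value is thus that between animals.

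The libraries held 36463524 to 68523196 gene counts. Trp53, the gene of p53, had 14.0 to 30.6 CPM (gene counts scaled to a common library size with TMM factors) over the 6 ICN p53-ko libraries against 70.2 to 113 CPM over the 6 ICN p53-wt libraries, with log2 -2.06 (SE 0.24, adjusted p = 0.009, edgeR). The level of Zbtb17, the gene of Miz1, counts the whole gene and so does not check the deleted part. All 15 T lineage markers passed the filter, and their summed level was 3087 to 7157 CPM over the libraries. The T cells were not alone: the summed erythroid markers exceeded the T lineage sum in 8 of the 12 ICN libraries and the neutrophil markers in 3 of them, and neither did so in the 4 libraries without ICN. The ICN Miz1-wt p53-ko replicate 1 library had 63.74% of its alignments not unique, and ICN deltaPOZ-Vav p53-wt replicate 2 had 56.19%, against 45.81% to 49.14% in the other ICN libraries. Without ICN, deltaPOZ-Vav replicate 1 had 56.21% and Miz1-wt replicate 1 had 53.99%, against 46.51% and 50.51% in the other 2. Results are given without these libraries where their absence changed a call.

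S phase begins when CDK activity removes RB from E2F factors. E2F then turns on genes that load the MCM helicase at origins, activate it and feed the fork. Mitotic genes come on later, in G2, when the MuvB complex with MYBL2 and then FOXM1 acts at a promoter element called the CHR, often near CCAAT boxes bound by NF-Y. In quiet cells, or when p53 induces p21, MuvB instead joins RB-like proteins and E2F4 in the DREAM complex, which holds both gene sets low. In T-ALL, Notch signalling is known to drive the growth of the leukaemic cells, and p53 is lost in some of the tumours.

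The promoters of both classes carried different elements. RefSeq windows (GRCm38.p6, 250 bases before to 50 after the transcript start) were matched for 39 of the 47 genes, 18 of S phase with 20 windows and 21 of mitosis with 21 windows. Both strands were searched for each element. A CHR was spelled TTTGAA, or in its other form TTCGAA, which is its own reverse complement. An E2F element was searched in 4 spellings. These spellings were TTCCCGC first, then the form TTCGCGC, then the form TTGCCGC and lastly the form TTGGCGC. The CCAAT box was searched by its own letters. A reversed TTGGCGC ends in CCAA and can overlap a CCAAT box. A CHR was found in 76.2% of mitotic windows and 25% of S-phase windows, against 14.3% of the 15151 windows of all genes tested. In the last 100 bases, around the start, the shares were 71.4% of mitotic windows, 15% of S-phase windows and 3.76% of the windows of all genes tested. An E2F element was found in 19% of mitotic windows and 65% of S-phase windows, against 15.4% of those of all genes tested. A CCAAT box stood in 85.7% of mitotic windows, 70% of S-phase windows and 37.2% of the windows of all genes tested. Every mitotic window with a CHR also had a CCAAT box (76.2%), and so did every S-phase window with a CHR (25%). This pair was found in 5.75% of the windows of all genes tested. A match is a stretch of letters and not a shown binding site.

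Windows of 7 genes that the results below turn on are printed so that the layout can be seen, 5′ to 3′ on the strand of the gene, with CHR, E2F and CCAAT matches of either strand in capitals. Mki67 (chr7:135716330-135716629, minus strand), Kif23 (chr9:61946750-61947049, minus strand), Cdc20 (chr4:118437294-118437593, minus strand) and Cdk1 (chr10:69352863-69353162, minus strand) are mitotic.
Mki67: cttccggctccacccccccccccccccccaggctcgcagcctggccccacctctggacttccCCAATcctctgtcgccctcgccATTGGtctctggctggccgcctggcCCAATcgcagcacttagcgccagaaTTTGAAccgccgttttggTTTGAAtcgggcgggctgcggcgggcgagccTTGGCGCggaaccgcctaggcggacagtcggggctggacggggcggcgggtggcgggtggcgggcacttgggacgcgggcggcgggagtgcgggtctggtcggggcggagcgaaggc
Kif23: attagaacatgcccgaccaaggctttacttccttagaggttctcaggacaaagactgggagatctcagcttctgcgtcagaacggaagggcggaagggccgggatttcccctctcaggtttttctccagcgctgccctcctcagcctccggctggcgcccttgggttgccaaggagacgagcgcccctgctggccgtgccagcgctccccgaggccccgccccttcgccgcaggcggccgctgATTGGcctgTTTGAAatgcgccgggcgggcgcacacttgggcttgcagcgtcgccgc
Cdc20: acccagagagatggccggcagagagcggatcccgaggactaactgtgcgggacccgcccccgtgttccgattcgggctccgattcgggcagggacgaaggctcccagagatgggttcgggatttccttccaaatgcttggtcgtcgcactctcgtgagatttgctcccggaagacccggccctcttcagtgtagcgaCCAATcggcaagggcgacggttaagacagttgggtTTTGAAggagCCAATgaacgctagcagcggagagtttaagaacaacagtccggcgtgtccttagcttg
Cdk1: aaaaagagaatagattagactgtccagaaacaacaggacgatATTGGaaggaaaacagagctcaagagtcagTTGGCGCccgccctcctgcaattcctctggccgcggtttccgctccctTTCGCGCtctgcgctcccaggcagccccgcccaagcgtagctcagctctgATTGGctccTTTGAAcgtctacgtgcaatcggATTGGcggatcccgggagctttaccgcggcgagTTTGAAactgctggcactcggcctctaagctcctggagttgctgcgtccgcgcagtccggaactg
In Mki67, pairs of CHR letters begin at bases 135 and 153 of the window, after 3 CCAAT boxes. In Kif23 a single CHR at base 253 follows a reversed CCAAT box at base 244. In Cdc20 the CHR at base 233 lies between CCAAT boxes at bases 198 and 243. Cdk1 has CHR letters at bases 180 and 236 and E2F letters further upstream at bases 73 and 121.

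E2f2 (upstream start, chr4:136172024-136172323, plus strand), Mcm5 (chr8:75109259-75109558, plus strand) and Chek1 (chr9:36726609-36726908, minus strand) are S-phase genes.
E2f2: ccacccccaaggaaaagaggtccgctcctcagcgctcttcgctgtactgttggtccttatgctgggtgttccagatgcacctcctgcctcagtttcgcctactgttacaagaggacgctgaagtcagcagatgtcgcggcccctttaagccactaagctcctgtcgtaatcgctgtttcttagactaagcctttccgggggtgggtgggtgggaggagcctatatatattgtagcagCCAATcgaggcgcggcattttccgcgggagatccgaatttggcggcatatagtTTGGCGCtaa
Mcm5: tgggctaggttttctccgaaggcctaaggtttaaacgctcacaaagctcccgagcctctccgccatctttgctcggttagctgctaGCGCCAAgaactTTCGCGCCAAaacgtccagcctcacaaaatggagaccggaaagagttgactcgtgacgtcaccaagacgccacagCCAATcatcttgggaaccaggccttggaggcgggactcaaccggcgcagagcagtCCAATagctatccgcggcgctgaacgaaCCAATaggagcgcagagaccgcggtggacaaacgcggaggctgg
Chek1: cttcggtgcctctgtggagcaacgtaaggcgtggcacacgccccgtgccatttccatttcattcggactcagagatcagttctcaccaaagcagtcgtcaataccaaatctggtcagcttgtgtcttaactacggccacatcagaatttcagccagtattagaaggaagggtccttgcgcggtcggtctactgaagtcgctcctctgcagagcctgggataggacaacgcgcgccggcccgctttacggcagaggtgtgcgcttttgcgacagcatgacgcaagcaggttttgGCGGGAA
E2f2 has E2F letters at base 291 and no CHR in this window. Its other window (chr4:136180532-136180831), counted in the shares but not printed, has a CHR at base 220 and no E2F match. There the CCAAT boxes are at bases 77, 118 and 198. Mcm5 has 3 E2F matches, at bases 87, 99 and 102, of which the last pair overlaps, and 3 CCAAT boxes. Chek1 has a reversed E2F match at the last bases of its window, from base 294, and no match to the other elements.

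Levels per kilobase of exon set the scale. The length was the union of all annotated exons of a gene, so the order of genes depends on that annotation. Mki67, which coats mitotic chromosomes and is a common marker of cycling cells, had the highest level of all members at 246 ± 75.2 CPM per kb (SD, n = 16 libraries). Top2a, the topoisomerase that untangles sister chromosomes, had 235 ± 31.0 CPM per kb and Pcna, the sliding clamp of DNA polymerase, 207 ± 33.1 CPM per kb. The ranges of these 3 over the libraries overlapped, and no test compared genes with each other. Mcm6, a subunit of the replicative helicase, had 161 ± 31.3 CPM per kb. At the other end were Wee1, the kinase that restrains Cdk1, with 8.03 ± 1.32 CPM per kb, Gins2, a helicase activator, with 7.08 ± 1.58 CPM per kb, and Brca2, a DNA repair factor, with 5.97 ± 1.88 CPM per kb. Gins2 shares 2758 exon bases with Gse1 and Kif20a shares 1271 with Cdc23 on the opposite strand, and the counter's strand setting is unknown here, so levels of both are uncertain. Smaller overlaps of this kind touch Mcm7, Cdc45, Orc1, Brca2, E2f8, Ccna2, Plk1 and Cdc20, and Foxm1 shares 241 bases with genes on its own strand.

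The median spread of the members between leukaemias was small, and close to that of genes at or above the level of the lowest member. The SD of log2 CPM over the 16 libraries had a median of 0.29 over the members, against 0.34 over the 6437 genes tested with a mean level at or above the lowest member and 0.56 over all genes tested. Bub1, a spindle checkpoint kinase, was the steadiest, with an SD of 0.16 and levels of 110 to 169 CPM. E2f2, an activating E2F, was the most variable with an SD of 0.59. Its highest library, ICN Miz1-wt p53-ko replicate 1 at 756 CPM, stood 4.40-fold above its lowest, noICN deltaPOZ-Vav p53-ko replicate 1 at 172 CPM. Brca2 (SD 0.50), Mki67 (0.47), Foxm1 (0.47), Cdc20 (0.46) and Cdc6 (0.44) followed.

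**Figure D1:**
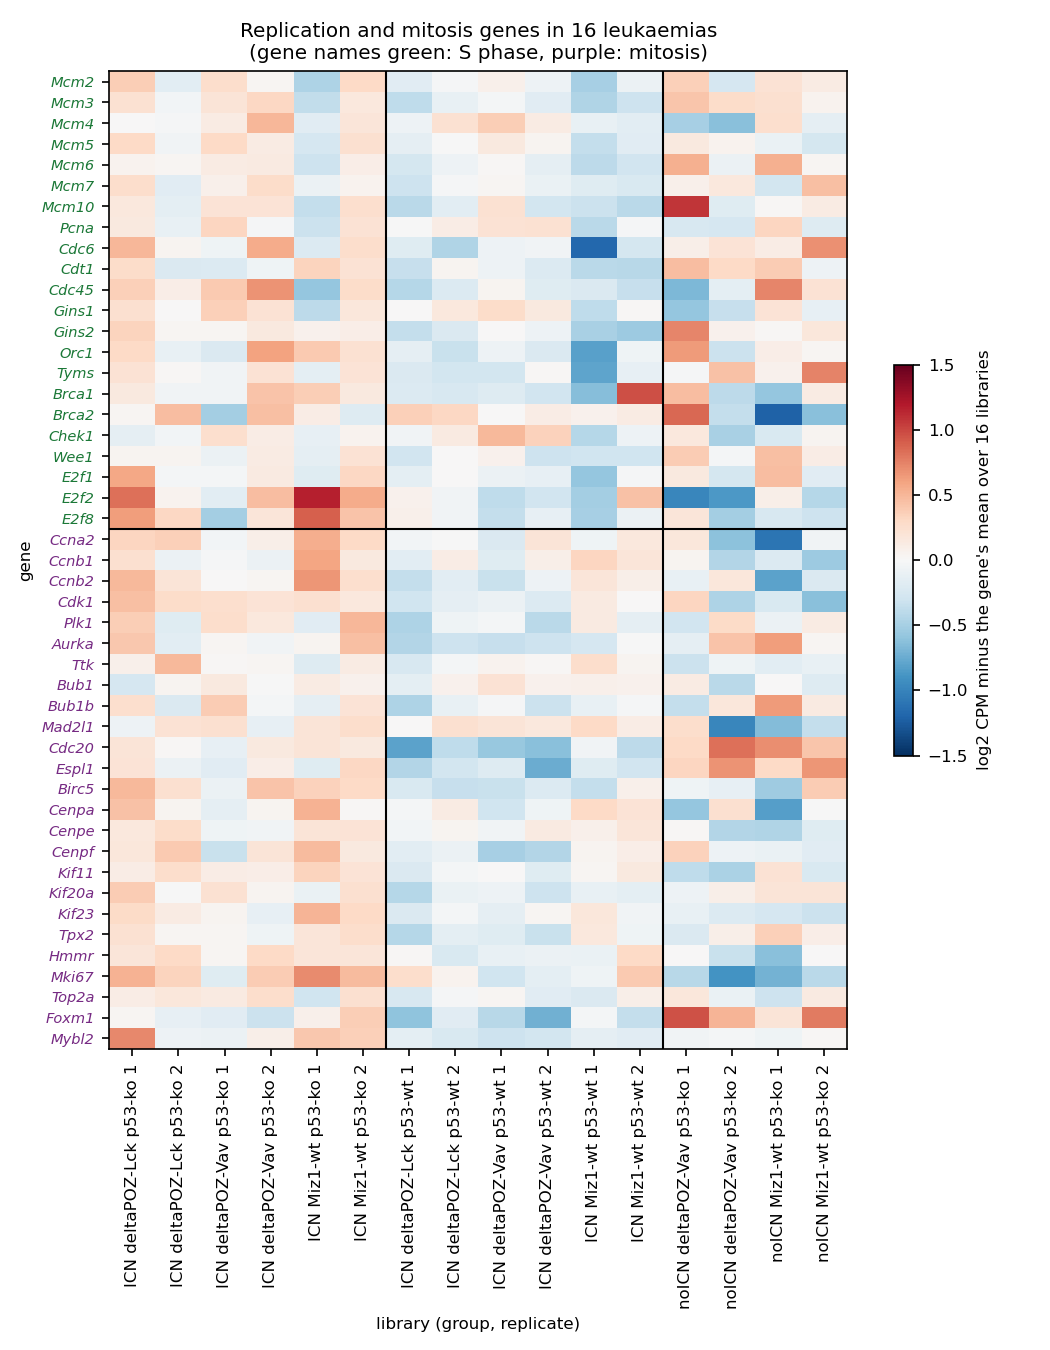
Level of each of the 47 genes (rows, S-phase genes above mitotic genes) in each of the 16 libraries (columns), drawn as log2 CPM minus the mean of that gene over all libraries. Most cells are pale, the rows of E2f2, Mki67, Foxm1 and Cdc20 are the most uneven, and in the 4 libraries without ICN Foxm1 and Cdc20 are above their own means while Mki67 is below its mean.

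With p53 ko in ICN leukaemias, 43 of the 47 members had a log2 fold change above 0, although no member passed the adjusted threshold. The 6 p53-ko libraries, from 3 ICN groups, were set against the 6 p53-wt libraries of the matching groups, which asks how loss of p53 went with cell cycle expression in Notch leukaemia. The members above 0 were 20 of 22 S-phase genes (median log2 0.25) and 23 of 25 mitotic genes (median log2 0.28). Over all genes tested, 50.5% were above 0 and the median was 0.00. edgeR's quasi-likelihood test with Benjamini-Hochberg adjustment over 17470 genes called 0 members and 0.195% of all genes. At an unadjusted p under 0.05 there were 8 S-phase and 13 mitotic members with a positive log2 fold change, together 21 of 47. No member had a negative one. Over all genes tested the shares were 8.65% positive and 6.83% negative. DESeq2 called 2 members, Cdc20 and Mybl2. All members were read in the same libraries and those of a class tend to vary together, so these counts of members are not independent of each other. In bulk RNA, a larger share of cycling cells and more RNA per cycling cell cannot be told apart.

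Among the replication genes all 15 were above 0, with a median log2 of 0.28. Cdc6, which helps load the helicase on origins, ranged over 118 to 200 CPM in p53-ko libraries (median 150) and 59.5 to 130 CPM in p53-wt libraries (median 116). Its log2 was 0.55 (SE 0.19, adjusted p = 0.205). Gins2, part of the GINS activator, was at 28.9 to 35.6 CPM in p53-ko libraries and 19.6 to 28.4 CPM in p53-wt libraries, with log2 0.40 (SE 0.14, adjusted p = 0.204). Its sides did not overlap, which was so in the higher direction for 0.973% of all genes tested. Gins2 was the only S-phase gene of this kind.

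Helicase subunits had smaller fold changes. Mcm2 had a lowest, median and highest level of 274, 418 and 486 CPM in p53-ko libraries and 267, 357 and 400 CPM in p53-wt libraries, with log2 0.20 (SE 0.17). Mcm5 had 399, 541 and 583 CPM in p53-ko libraries and 373, 454 and 528 CPM in p53-wt libraries, with log2 0.19 (SE 0.12). Both sets of libraries overlapped over most of their range. Pcna was at 390, 512 and 614 CPM in p53-ko libraries and 369, 509 and 575 CPM in p53-wt libraries, with log2 0.02 (SE 0.14). Tyms, which makes thymidylate for DNA synthesis, was at 121, 145 and 156 CPM in p53-ko libraries and 77.5, 113 and 136 CPM in p53-wt libraries, with log2 0.34 (SE 0.17, adjusted p = 0.349).

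The checkpoint and repair genes were split, with 2 of 4 above 0. Chek1, the kinase that answers replication stress, was at 68.6, 75.7 and 89.6 CPM in p53-ko libraries and 56.2, 77.9 and 106 CPM in p53-wt libraries, with log2 -0.06 (SE 0.13). Brca1, a DNA repair factor, was at 186, 213 and 262 CPM in p53-ko libraries and 124, 166 and 381 CPM in p53-wt libraries, with log2 0.20 (SE 0.26). The highest and the lowest Brca1 values of all 16 libraries belong to the 2 ICN Miz1-wt p53-wt mice.

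The E2F factors were all above 0. E2f2 was at 303, 479 and 756 CPM in p53-ko libraries and 237, 300 and 456 CPM in p53-wt libraries, with log2 0.62 (SE 0.21, adjusted p = 0.194). E2f8, an atypical E2F that represses its targets, was at 48.5, 88.8 and 128 CPM in p53-ko libraries and 48.7, 63.9 and 73.0 CPM in p53-wt libraries, with log2 0.51 (SE 0.17, adjusted p = 0.191). For both, the lowest p53-ko library was ICN deltaPOZ-Vav replicate 1, which lay within the p53-wt range for E2f2 and level with the lowest p53-wt library for E2f8. E2f1, the best known activating E2F, was at 23.8, 28.1 and 40.7 CPM in p53-ko libraries and 18.0, 25.2 and 27.3 CPM in p53-wt libraries, with log2 0.29 (SE 0.18).

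Among mitotic genes, Cdc20 had the lowest p of all members. Cdc20 activates the ligase that starts anaphase. It was at 199, 240 and 248 CPM in p53-ko libraries and 125, 156 and 209 CPM in p53-wt libraries, with log2 0.56 (SE 0.13, adjusted p = 0.1 with edgeR and 0.00519 with DESeq2). A single p53-wt library, ICN Miz1-wt replicate 1, reached into the p53-ko range. Mybl2, the MuvB partner that opens G2 transcription, was at 64.2, 80.0 and 113 CPM in p53-ko libraries and 55.1, 59.7 and 62.1 CPM in p53-wt libraries, with log2 0.46 (SE 0.13, adjusted p = 0.14 with edgeR and 0.0278 with DESeq2). Its sides did not overlap. Without ICN deltaPOZ-Lck p53-ko replicate 1, the library at 113 CPM, its log2 was 0.29. Birc5, the survivin subunit of the chromosomal passenger complex, had log2 0.52 (SE 0.17, adjusted p = 0.168).

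The mitotic kinases and cyclins were all 7 above 0. Cdk1, the kinase that drives entry into mitosis, was at 243, 257 and 297 CPM in p53-ko libraries and 176, 200 and 237 CPM in p53-wt libraries, with log2 0.36 (SE 0.14, adjusted p = 0.236). It was the other mitotic gene with sides that did not overlap. Ccnb1, its cyclin partner, was at 170, 190 and 273 CPM in p53-ko libraries and 160, 194 and 227 CPM in p53-wt libraries, with log2 0.08 (SE 0.14). Plk1 was at 97.7, 128 and 156 CPM in p53-ko libraries and 80.4, 104 and 122 CPM in p53-wt libraries, with log2 0.32 (SE 0.17). Aurka, the Aurora kinase of spindle poles, was at 109, 124 and 165 CPM in p53-ko libraries and 89.3, 97.6 and 120 CPM in p53-wt libraries, with log2 0.41 (SE 0.16, adjusted p = 0.237). Aurka overlapped in part, with all p53-ko libraries above all but 1 of the p53-wt libraries. Plk1 and Ccnb1 overlapped over much of their range.

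The factor Foxm1 was at 59.6, 72.6 and 96.6 CPM in p53-ko libraries and 45.2, 57.3 and 73.3 CPM in p53-wt libraries, with log2 0.35 (SE 0.15, adjusted p = 0.293). Mki67 was at 2074, 3169 and 3861 CPM in p53-ko libraries and 1914, 2350 and 3076 CPM in p53-wt libraries, with log2 0.34 (SE 0.15, adjusted p = 0.311). Top2a was at 1712, 2335 and 2527 CPM in p53-ko libraries and 1769, 1972 and 2221 CPM in p53-wt libraries, with log2 0.20 (SE 0.14). Only Bub1 (log2 -0.03) and Mad2l1 (log2 -0.04), both of the spindle checkpoint, were below 0 among the mitotic genes.

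**Figure D2:**
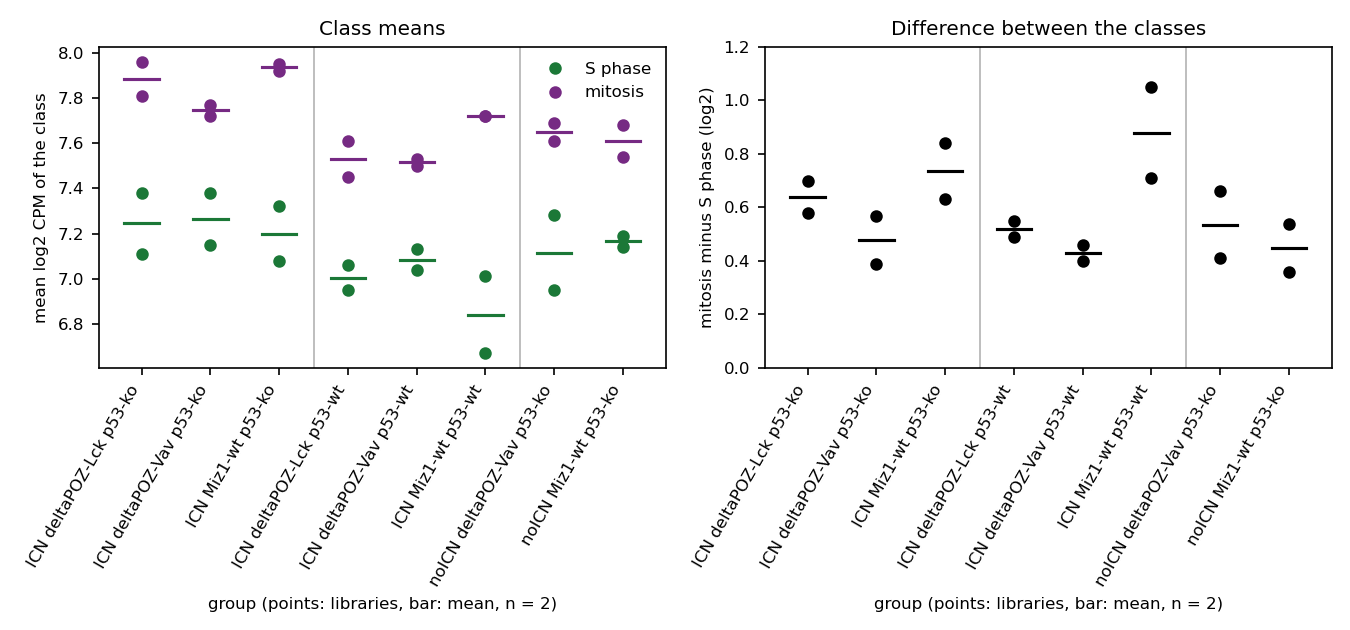
Mean log2 CPM of the 22 S-phase genes and of the 25 mitotic genes (left) and mitotic minus S-phase mean (right) in each of the 16 libraries, by group, with a point per library and a bar at the mean of the 2. In ICN leukaemias the mitotic mean is 7.72 to 7.96 with p53 ko and 7.45 to 7.72 with p53 wt.

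The class means give a value per library. The mean log2 CPM of the mitotic genes was 7.72 to 7.96 in the 6 p53-ko libraries and 7.45 to 7.72 in the 6 p53-wt libraries. That of the S-phase genes was 7.08 to 7.38 in p53-ko libraries and 6.67 to 7.13 in p53-wt libraries, with an overlap. The mitotic minus S-phase difference was 0.39 to 0.84 in p53-ko libraries and 0.40 to 1.05 in p53-wt libraries. These means describe genes picked for their function and carry no test.

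Other genes of both processes, from lists that hold no member, were mostly above 0 too. These lists were read in the same libraries and chosen with earlier results of these data known, so they are no independent check of the members. Of 43 other S-phase genes 39 were above 0 (median log2 0.24, 0 called, 11 positive and 1 negative at an unadjusted p under 0.05). Of 43 other mitotic genes 38 were above 0 (median log2 0.24, 0 called, 14 positive and 1 negative at an unadjusted p under 0.05). Clspn, the adaptor through which ATR switches on Chek1, came closest to the threshold with 233 ± 30.8 CPM in p53-ko libraries and 148 ± 14.4 CPM in p53-wt libraries (SD, n = 6 each; log2 0.66, SE 0.13, edgeR adjusted p = 0.0687). Of 14 genes of the DREAM and RB network 10 were above 0, with a median log2 of 0.05 and no unadjusted p under 0.05. Cdkn1a, the gene of p21, was at 0.436 to 9.01 CPM in p53-ko libraries and 0.384 to 1.17 CPM in p53-wt libraries (log2 0.94, SE 0.59, adjusted p = 0.475). For deltaPOZ against Miz1 wt in ICN leukaemias, the log2 of Cdkn1a was -2.61 with p53 ko (SE 0.83, adjusted p = 0.851). With p53 wt it was -0.20 (SE 0.87).

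Summed myeloid markers reached higher in some p53-ko libraries. The summed level of 12 neutrophil markers was 54.0 to 9279 CPM in p53-ko libraries and 56.2 to 924 CPM in p53-wt libraries, and that of 12 macrophage markers 323 to 1668 CPM in p53-ko libraries and 197 to 434 CPM in p53-wt libraries. No marker of either list was called by edgeR, while 12 of 12 and 7 of 12 had a positive log2 fold change at an unadjusted p under 0.05. No defining marker was at 0 on either side. T lineage markers summed to 3087 to 4058 CPM in p53-ko libraries and 3372 to 4637 CPM in p53-wt libraries, with 0 of 15 called and 1 lower at an unadjusted p under 0.05. B cell markers summed to 19.7 to 188 CPM in p53-ko libraries and 31.7 to 181 CPM in p53-wt libraries, with 11 of 12 below 0, 0 called and 2 lower at an unadjusted p under 0.05. Erythroid markers summed to 2510 to 9041 CPM in p53-ko libraries and 2117 to 8043 CPM in p53-wt libraries, with 11 of 11 above 0 and none at an unadjusted p under 0.05. The part of these cells in the cell cycle values was not tested. Split by Miz1 status, 41 of 47 members were above 0 among the deltaPOZ groups (4 against 4 mice) and 44 of 47 among the Miz1-wt groups (2 against 2 mice), with 0 called in each.

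**Figure D3:**
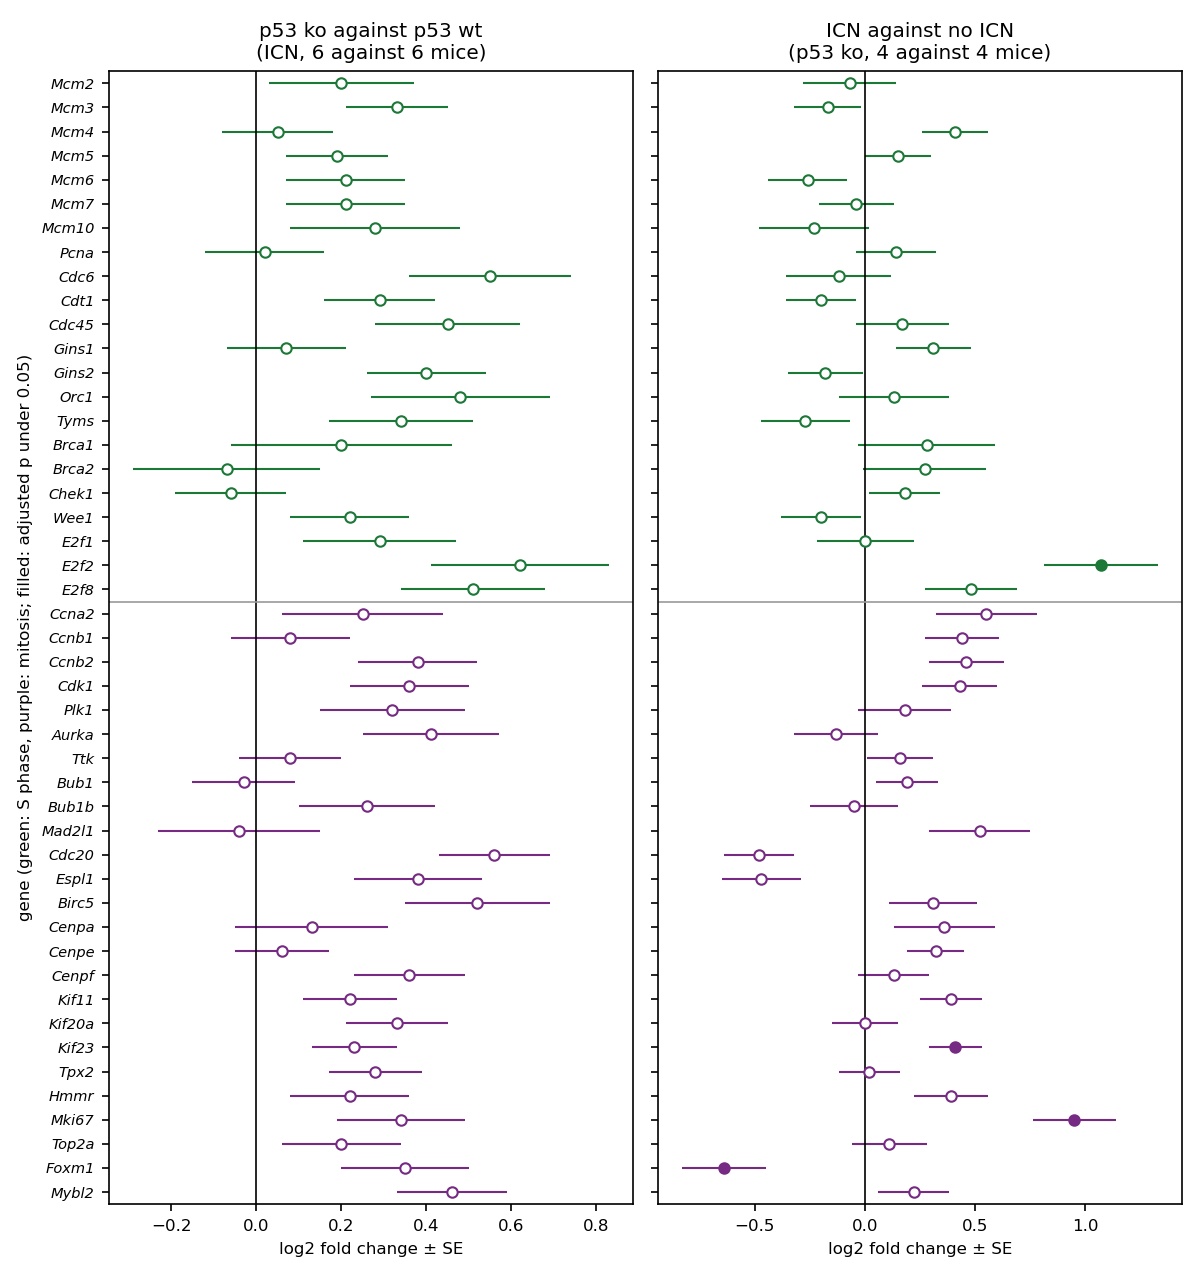
log2 fold change with its SE of each of the 47 genes for p53 ko against p53 wt in ICN leukaemias (6 against 6 mice) and for ICN against no ICN in p53-ko leukaemias (4 against 4 mice). For p53, 43 genes lie right of 0 with no call. For ICN the genes spread over both sides, with Mki67, E2f2 and Kif23 called higher and Foxm1 called lower.

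Between ICN and no ICN among p53-ko leukaemias, 4 members passed the threshold and they did not go one way. Mki67, E2f2 and Kif23 were higher with ICN, and Foxm1 was lower. The sides were 4 ICN libraries (deltaPOZ-Vav and Miz1 wt) and 4 libraries without ICN of the same Miz1 states, which asks how Notch-driven leukaemia differs from that arising on p53 loss without ICN. Calls took 24% of all genes tested (12.9% higher, 11.1% lower), so 4 of 47 members is a smaller share than over all genes. The S-phase genes were even, with 11 of 22 above 0 (median log2 0.06, 1 higher, 0 lower), and the mitotic genes had 20 of 25 above 0 (median log2 0.22, 2 higher, 1 lower). Over all genes tested 49.1% were above 0, with a median of -0.02. The p53 and ICN comparisons share the ICN p53-ko libraries, so their values are not independent.

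Mki67 had 2074 and 3064 CPM in ICN deltaPOZ-Vav and 3861 and 3274 CPM in ICN Miz1-wt libraries, against 1771 and 1270 CPM in noICN deltaPOZ-Vav and 1436 and 1785 CPM in noICN Miz1-wt libraries. All 4 ICN libraries lay above all 4 without ICN, a pattern held in this direction by 12.1% of all genes tested. The log2 was 0.95 (SE 0.19, adjusted p = 0.00495). The 2 ICN deltaPOZ-Lck p53-ko libraries, which this comparison leaves out, had 3368 and 2978 CPM, also above every library without ICN.

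E2f2 had 303 and 464 CPM in ICN deltaPOZ-Vav and 756 and 494 CPM in ICN Miz1-wt libraries, against 172 and 186 CPM in noICN deltaPOZ-Vav and 358 and 251 CPM in noICN Miz1-wt libraries. Within each Miz1 state the ICN libraries were above those without ICN, but the lowest ICN library lay under the highest without ICN. The log2 was 1.07 (SE 0.26, adjusted p = 0.0131). Leaving out ICN deltaPOZ-Vav p53-ko replicate 2 gave log2 0.87 with adjusted p = 0.0643, and leaving out noICN Miz1-wt p53-ko replicate 2 gave log2 0.90 with adjusted p = 0.0524. Its fellow activator E2f1 had 26.4 and 29.7 CPM in ICN deltaPOZ-Vav and 23.8 and 33.5 CPM in ICN Miz1-wt libraries, against 30.0 and 22.6 CPM in noICN deltaPOZ-Vav and 37.4 and 24.2 CPM in noICN Miz1-wt libraries. E2f1 thus showed full overlap, with log2 -0.00 (SE 0.22).

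Kif23, a motor of the central spindle needed for cytokinesis, had 146 and 129 CPM in ICN deltaPOZ-Vav and 202 and 175 CPM in ICN Miz1-wt libraries, against 131 and 123 CPM in noICN deltaPOZ-Vav and 119 and 113 CPM in noICN Miz1-wt libraries. The lowest ICN library lay just under the highest without ICN. The log2 was 0.41 (SE 0.12, adjusted p = 0.0318), and leaving out any 1 of the 8 libraries ended the call, with log2 0.35 to 0.43 and adjusted p of 0.0601 to 0.116.

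Foxm1, the forkhead factor that works with MuvB at late cell cycle promoters, had 66.7 and 59.6 CPM in ICN deltaPOZ-Vav and 79.0 and 96.6 CPM in ICN Miz1-wt libraries, against 145 and 106 CPM in noICN deltaPOZ-Vav and 85.8 and 128 CPM in noICN Miz1-wt libraries. A single ICN library, Miz1-wt replicate 2, lay above the lowest without ICN. The log2 was -0.64 (SE 0.19, adjusted p = 0.029), and leaving out 5 of the 8 libraries, each in turn, ended the call with log2 -0.52 to -0.66 and adjusted p of 0.0622 to 0.0974. Without the ICN Miz1-wt p53-ko replicate 1 library named above, only Mki67 and E2f2 stayed called. Without noICN deltaPOZ-Vav p53-ko replicate 1, the library without ICN with the most alignments that are not unique, 10 members were called. Those were Mad2l1, Mki67, Cdk1, E2f2, Cenpe, Ccna2, Ccnb1 and E2f8 higher and Cdc20 and Espl1 lower, so Foxm1 (adjusted p = 0.0622) and Kif23 (adjusted p = 0.0601) were not among them. Without noICN Miz1-wt p53-ko replicate 1 the calls were E2f2, Mki67 and Kif11 higher and Foxm1 lower.

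Cdc20 was the mitotic gene with all ICN libraries below all without ICN, which 9.56% of all genes tested showed. It had 199 and 240 CPM in ICN deltaPOZ-Vav and 247 and 240 CPM in ICN Miz1-wt libraries, against 268 and 382 CPM in noICN deltaPOZ-Vav and 350 and 288 CPM in noICN Miz1-wt libraries. Its log2 was -0.48 (SE 0.16, adjusted p = 0.0538). Hmmr, a spindle-assembly protein, was the other member besides Mki67 with all ICN libraries above, with log2 0.39 (SE 0.17, adjusted p = 0.114).

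**Figure D4:**
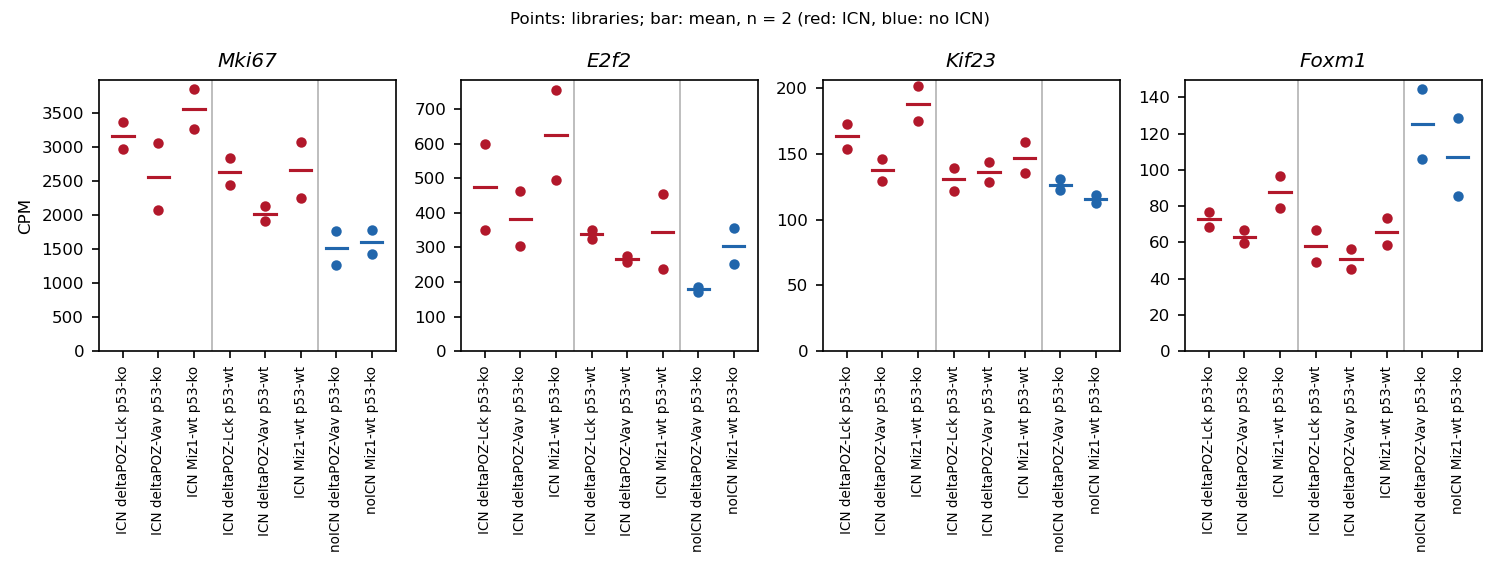
CPM of Mki67, E2f2, Kif23 and Foxm1 in each of the 16 libraries by group, with a point per library and a bar at the mean of the 2. In p53-ko leukaemias Mki67 is at 2074 CPM or above with ICN and at 1785 CPM or below without it, and Foxm1 at 96.6 CPM or below with ICN and 85.8 CPM or above without.

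The mitotic kinases and cyclins stood at 6 of 7 above 0, with no call. Cdk1 had 258 and 248 CPM in ICN deltaPOZ-Vav and 255 and 243 CPM in ICN Miz1-wt libraries, against 270 and 158 CPM in noICN deltaPOZ-Vav and 184 and 140 CPM in noICN Miz1-wt libraries (log2 0.43, SE 0.17, adjusted p = 0.089). The 4 ICN values were tight, and 1 library without ICN stood above them. Ccnb1 had 180 and 171 CPM in ICN deltaPOZ-Vav and 273 and 201 CPM in ICN Miz1-wt libraries, against 187 and 134 CPM in noICN deltaPOZ-Vav and 157 and 125 CPM in noICN Miz1-wt libraries (log2 0.44, SE 0.17, adjusted p = 0.0801). Plk1 had 132 and 123 CPM in ICN deltaPOZ-Vav and 98.4 and 156 CPM in ICN Miz1-wt libraries, against 90.4 and 135 CPM in noICN deltaPOZ-Vav and 104 and 120 CPM in noICN Miz1-wt libraries (log2 0.18, SE 0.21). Aurka had 124 and 117 CPM in ICN deltaPOZ-Vav and 125 and 165 CPM in ICN Miz1-wt libraries, against 110 and 162 CPM in noICN deltaPOZ-Vav and 186 and 124 CPM in noICN Miz1-wt libraries (log2 -0.13, SE 0.19). Both kinases overlapped throughout.

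Top2a did not follow Mki67. It had 2296 and 2527 CPM in ICN deltaPOZ-Vav and 1712 and 2465 CPM in ICN Miz1-wt libraries, against 2363 and 1965 CPM in noICN deltaPOZ-Vav and 1688 and 2304 CPM in noICN Miz1-wt libraries (log2 0.11, SE 0.17). Mybl2 had 64.2 and 72.4 CPM in ICN deltaPOZ-Vav and 90.4 and 87.5 CPM in ICN Miz1-wt libraries, against 65.5 and 67.2 CPM in noICN deltaPOZ-Vav and 65.4 and 69.5 CPM in noICN Miz1-wt libraries (log2 0.22, SE 0.16).

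The replication genes had 6 of 15 above 0 and no call, from log2 -0.27 for Tyms to 0.41 for Mcm4. Mcm2 had 451 and 385 CPM in ICN deltaPOZ-Vav and 274 and 463 CPM in ICN Miz1-wt libraries, against 483 and 316 CPM in noICN deltaPOZ-Vav and 438 and 409 CPM in noICN Miz1-wt libraries. Mcm5 had 583 and 518 CPM in ICN deltaPOZ-Vav and 399 and 564 CPM in ICN Miz1-wt libraries, against 526 and 495 CPM in noICN deltaPOZ-Vav and 445 and 396 CPM in noICN Miz1-wt libraries. Neither set of libraries lay apart from the other.

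Pcna had 614 and 483 CPM in ICN deltaPOZ-Vav and 390 and 569 CPM in ICN Miz1-wt libraries, against 416 and 413 CPM in noICN deltaPOZ-Vav and 612 and 429 CPM in noICN Miz1-wt libraries. Cdc6 had 130 and 200 CPM in ICN deltaPOZ-Vav and 118 and 162 CPM in ICN Miz1-wt libraries, against 144 and 157 CPM in noICN deltaPOZ-Vav and 146 and 218 CPM in noICN Miz1-wt libraries. Tyms had 130 and 156 CPM in ICN deltaPOZ-Vav and 121 and 154 CPM in ICN Miz1-wt libraries, against 132 and 182 CPM in noICN deltaPOZ-Vav and 140 and 224 CPM in noICN Miz1-wt libraries. These supply and licensing genes overlapped as well.

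Chek1 had 89.6 and 81.6 CPM in ICN deltaPOZ-Vav and 68.8 and 78.0 CPM in ICN Miz1-wt libraries, against 84.4 and 53.7 CPM in noICN deltaPOZ-Vav and 64.2 and 77.8 CPM in noICN Miz1-wt libraries. Brca1 had 186 and 262 CPM in ICN deltaPOZ-Vav and 251 and 213 CPM in ICN Miz1-wt libraries, against 267 and 148 CPM in noICN deltaPOZ-Vav and 130 and 210 CPM in noICN Miz1-wt libraries. Both checkpoint genes overlapped, with log2 0.18 (SE 0.16) for Chek1 and 0.28 (SE 0.31) for Brca1.

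Other genes of the cycle were called in both directions too. Of 43 other mitotic genes 5 rose and 3 fell with ICN, and of 43 other S-phase genes 4 rose and 1 fell, shares no larger than the 24% called among all genes tested. Prc1, the bundler of central spindle microtubules, averaged 326 ± 45.3 CPM with ICN and 164 ± 40.1 CPM without (SD, n = 4 each; log2 0.99, SE 0.18, edgeR adjusted p = 0.00264). Rrm1, the large subunit of ribonucleotide reductase, averaged 764 ± 42.2 CPM with ICN and 466 ± 108 CPM without (log2 0.72, adjusted p = 0.0082). Fen1, which trims Okazaki fragments, averaged 259 ± 25.4 CPM with ICN and 156 ± 33.7 CPM without (log2 0.74, adjusted p = 0.00997). Anln, the anillin of the cleavage furrow, had log2 0.53 (adjusted p = 0.0121).

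The other calls in the higher direction were Kif20b (log2 0.75), Cks2 (0.59) and Ckap2 (0.47) among mitotic genes, and Blm (0.83) and Gmnn (0.58) among S-phase genes, named after their values were seen. On the lower side, Racgap1, which works with Kif23 in the central spindle, averaged 239 ± 58.3 CPM with ICN and 349 ± 36.3 CPM without (log2 -0.55, adjusted p = 0.0318). Cdca2 had log2 -0.73, Melk -0.51 and Usp1 -0.63. Of the 14 DREAM and RB genes 3 rose, against 12.9% of all genes tested, also named after their values were seen. They were Tfdp2, a partner of E2F, with log2 1.56 (adjusted p = 0.00628), E2f4 with 0.64 (adjusted p = 0.0348) and Rbl1, the gene of p107, with 0.61 (adjusted p = 0.0491).

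Markers of other blood cells moved strongly with ICN. Erythroid markers summed to 2510 to 7402 CPM in the 4 ICN libraries and 11.6 to 46.7 CPM in the 4 without ICN, with 11 of 11 called higher. Neutrophil markers summed to 54.0 to 3897 CPM with ICN and 0.801 to 1.65 CPM without, with 12 of 12 called higher and Fcnb at 0 without ICN. B cell markers summed to 19.7 to 188 CPM with ICN and 9.96 to 24.5 CPM without, with 9 of 12 called higher. Macrophage markers summed to 323 to 485 CPM with ICN and 132 to 363 CPM without, with 5 of 12 called higher, and stroma and endothelium markers to 114 to 188 CPM with ICN and 181 to 310 CPM without, with 2 of 11 called higher and 2 lower. T lineage markers summed to 3604 to 4058 CPM with ICN and 4889 to 7157 CPM without, with 2 of 15 called higher and 7 lower. The part of these cells, whose erythroid and granulocyte precursors divide while mature granulocytes do not, in the values of Mki67, E2f2 and the others was not tested.

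In ICN p53-wt leukaemias most log2 fold changes of deltaPOZ against Miz1 wt lay on opposite sides of 0 in the S-phase and the mitotic genes, without a call. In the 4 deltaPOZ libraries against 2 Miz1-wt libraries, all 25 mitotic genes were below 0 (median log2 -0.20) and 20 of 22 S-phase genes above 0 (median log2 0.23). The comparison bears on the series title, which names the effect of POZ deletion on expression in T-ALL. edgeR called 0 members and 0% of all genes tested, with Chek1 alone of the members at an unadjusted p under 0.05, against 1.87% of all genes, and DESeq2 called 0 members. Members of 1 class tend to vary together, and the 2 Miz1-wt libraries are common to all 47 values, so the counts of signs are not independent of each other.

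The S-phase genes with all 4 deltaPOZ libraries above both Miz1-wt libraries were 7 of 22: Mcm4, Mcm5, Mcm6, Pcna, Cdt1, Gins2 and Chek1, against 5.45% of all genes tested. Chek1 had 73.2 and 82.7 CPM in deltaPOZ-Lck and 106 and 95.4 CPM in deltaPOZ-Vav libraries, against 56.2 and 71.6 CPM in Miz1-wt libraries (log2 0.47, SE 0.20, adjusted p = 1). Gins2 had 22.1 and 24.4 CPM in deltaPOZ-Lck and 28.4 and 26.9 CPM in deltaPOZ-Vav libraries, against 20.2 and 19.6 CPM in Miz1-wt libraries (log2 0.35, SE 0.21, adjusted p = 1). In both genes the deltaPOZ-Vav libraries stood above the deltaPOZ-Lck libraries. Mcm5 had 433 and 474 CPM in deltaPOZ-Lck and 528 and 492 CPM in deltaPOZ-Vav libraries, against 373 and 426 CPM in Miz1-wt libraries (log2 0.27, SE 0.18). Brca1 had the opposite sign, with log2 -0.62 (SE 0.38), at 168 and 164 CPM in deltaPOZ-Lck and 169 and 158 CPM in deltaPOZ-Vav libraries, against 124 and 381 CPM in the Miz1-wt libraries, which enclose them.

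The mitotic genes with all 4 deltaPOZ libraries below both Miz1-wt libraries were 8 of 25: Ccnb1, Ccnb2, Cdk1, Aurka, Cenpa, Cenpf, Kif11 and Tpx2, against 5.95% of all genes tested. Tpx2, which carries Aurora A to the spindle, had 204 and 247 CPM in deltaPOZ-Lck and 241 and 216 CPM in deltaPOZ-Vav libraries, against 307 and 261 CPM in Miz1-wt libraries (log2 -0.32, SE 0.16, adjusted p = 1). Cdc20 had 125 and 167 CPM in deltaPOZ-Lck and 146 and 140 CPM in deltaPOZ-Vav libraries, against 209 and 165 CPM in Miz1-wt libraries (log2 -0.38, SE 0.20, adjusted p = 1). Cdk1 had 176 and 196 CPM in deltaPOZ-Lck and 203 and 187 CPM in deltaPOZ-Vav libraries, against 237 and 217 CPM in Miz1-wt libraries (log2 -0.25, SE 0.21). For Cdk1 and Tpx2 the sides lay apart, and for Cdc20 a single deltaPOZ-Lck library overlapped. Without ICN Miz1-wt p53-wt replicate 1 the log2 was 0.28 for Chek1, -0.22 for Tpx2 and -0.22 for Cdc20.

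The mitotic minus S-phase difference of class means put this in a value per mouse. It was 0.49 and 0.55 in deltaPOZ-Lck and 0.40 and 0.46 in deltaPOZ-Vav libraries, against 1.05 and 0.71 in Miz1-wt libraries, all on the log2 scale. The library at 1.05, ICN Miz1-wt p53-wt replicate 1, had the lowest S-phase mean of all 16 libraries. Without it, 16 of 22 S-phase genes were above 0 and 24 of 25 mitotic genes below 0. Without ICN deltaPOZ-Vav p53-wt replicate 2, the library with many alignments that are not unique, these counts were 20 and 23.

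Other genes leaned the same way by class, with 39 of 43 other S-phase genes above 0 (median log2 0.20) and 36 of 43 other mitotic genes below 0 (median log2 -0.16), and 0 called in either list, where a single S-phase gene and no mitotic gene had an unadjusted p under 0.05. That S-phase gene, Hells, a chromatin remodeller, averaged 247 ± 41.2 CPM in deltaPOZ libraries and 165 ± 23.4 CPM in Miz1-wt libraries (SD, n = 4 and 2; log2 0.57, SE 0.22). Both lists were read in the same libraries as the members and are no independent check of them. B cell markers summed to 116 to 181 CPM in deltaPOZ libraries and 31.7 to 115 CPM in Miz1-wt libraries, with 0 of 12 called and 2 higher at an unadjusted p under 0.05. Erythroid markers summed to 2954 to 7270 CPM in deltaPOZ libraries and 2117 to 8043 CPM in Miz1-wt libraries, with 11 of 11 below 0. Of the neutrophil markers 10 of 12 were below 0. All 12 macrophage markers and all 11 stroma and endothelium markers tested were above 0. No marker of these 4 lists had an unadjusted p under 0.05. Their part in the class values was not tested.

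**Figure D5:**
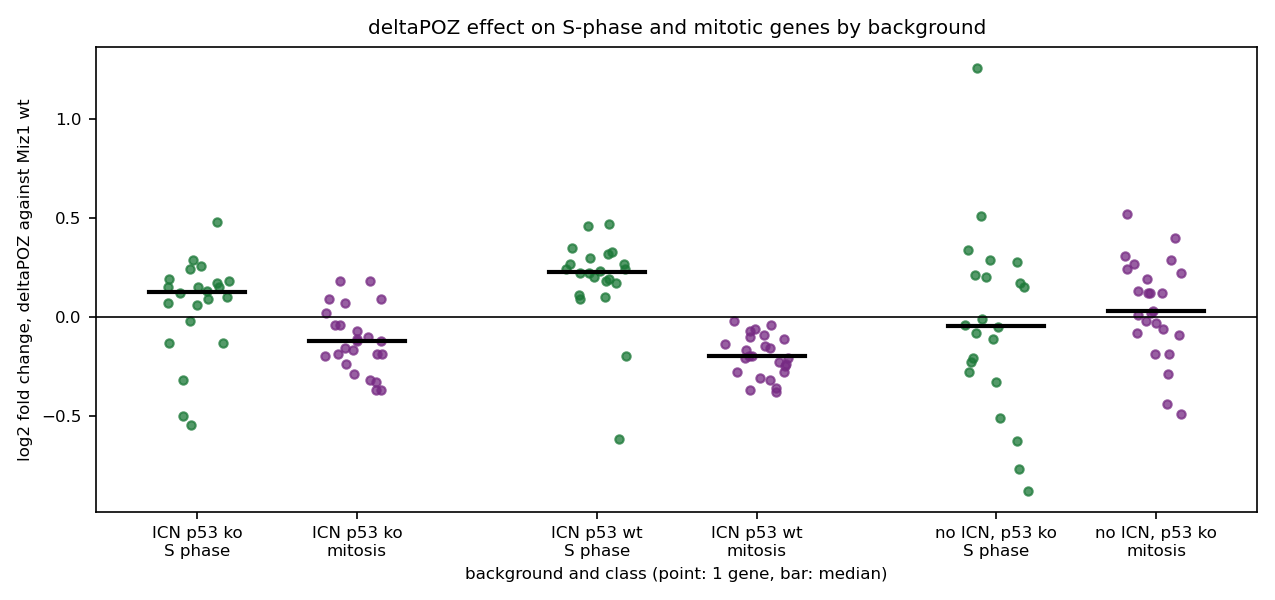
log2 fold change of deltaPOZ against Miz1 wt (vertical axis) of each S-phase gene (green) and each mitotic gene (purple) in 3 backgrounds, with a point per gene and a bar at the median. In ICN p53-wt leukaemias the median is 0.23 for S-phase and -0.20 for mitotic genes, and without ICN the S-phase genes run from -0.88 to 1.26 and the mitotic genes from -0.49 to 0.52.

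In ICN p53-ko leukaemias the medians had the same signs and no member was called. Of the mitotic genes 19 of 25 were below 0 (median log2 -0.12) and of the S-phase genes 16 of 22 above 0 (median log2 0.12). edgeR called 0 members and 0.00572% of all genes, with Kif23 alone of the members at an unadjusted p under 0.05, against 3.78% of all genes, and DESeq2 called 0 members. Without ICN Miz1-wt p53-ko replicate 1 the S-phase count was 8 of 22. Kif23 had 173 and 154 CPM in deltaPOZ-Lck and 146 and 129 CPM in deltaPOZ-Vav libraries, against 202 and 175 CPM in Miz1-wt libraries (log2 -0.33, SE 0.15, adjusted p = 1). Foxm1 had 76.8 and 68.4 CPM in deltaPOZ-Lck and 66.7 and 59.6 CPM in deltaPOZ-Vav libraries, against 79.0 and 96.6 CPM in Miz1-wt libraries (log2 -0.37, SE 0.22). These 2 were the mitotic genes with all deltaPOZ libraries below, against 4.5% of all genes tested, and no S-phase gene lay apart in either direction.

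Further members with low p in this background overlapped between the sides. E2f8 had 106 and 85.4 CPM in deltaPOZ-Lck and 48.5 and 78.1 CPM in deltaPOZ-Vav libraries, against 128 and 92.3 CPM in Miz1-wt libraries (log2 -0.50, SE 0.25). Ccnb1 had 214 and 170 CPM in deltaPOZ-Lck and 180 and 171 CPM in deltaPOZ-Vav libraries, against 273 and 201 CPM in Miz1-wt libraries (log2 -0.37, SE 0.20). Cdc45, which rides with the helicase at the fork, had 154 and 129 CPM in deltaPOZ-Lck and 158 and 191 CPM in deltaPOZ-Vav libraries, against 80.2 and 145 CPM in Miz1-wt libraries (log2 0.48, SE 0.26). The adjusted p was 1 for each of the 3. Without replicate 1 of the Miz1-wt group the log2 was -0.24 for E2f8, -0.13 for Ccnb1, 0.11 for Cdc45 and -0.22 for Kif23, and without replicate 2 of that group it was 1.0 for Cdc45 and -0.54 for Ccnb1. E2f8 was also at -0.33 without ICN deltaPOZ-Vav p53-ko replicate 1. B cell markers summed to 54.7 to 188 CPM in deltaPOZ libraries and 19.7 to 28.6 CPM in Miz1-wt libraries, with 0 of 12 called and 9 higher at an unadjusted p under 0.05, and their part was not tested.

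The difference of the deltaPOZ effect between ICN p53-ko and ICN p53-wt leukaemias was tested itself. edgeR called 0 members and 0% of all genes, with 0 members at an unadjusted p under 0.05 against 2.6% of all genes, and DESeq2 called 0 members. The lowest p belonged to Cdt1, the licensing factor, with a difference of log2 effects of -0.59 (SE 0.28, adjusted p = 1). Its deltaPOZ log2 was -0.32 with p53 ko and 0.27 with p53 wt. Cdt1 had 82.4, 58.2, 58.3 and 64.6 CPM in the 4 deltaPOZ p53-ko libraries against 85.4 and 78.7 CPM in Miz1-wt p53-ko libraries, and 53.4, 69.7, 64.1 and 58.4 CPM in the 4 deltaPOZ p53-wt libraries against 51.2 and 50.9 CPM in Miz1-wt p53-wt libraries. E2f8 followed with -0.67 (SE 0.36), and among mitotic genes Ttk, the kinase at the head of the spindle checkpoint, with 0.39 (SE 0.26) and Cdk1 with 0.35 (SE 0.29).

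Without ICN, both classes had medians near 0. In 2 deltaPOZ-Vav against 2 Miz1-wt libraries, 9 of 22 S-phase genes (median log2 -0.05) and 15 of 25 mitotic genes (median log2 0.03) were above 0. edgeR called 0 members and 0% of all genes, with 2 members positive and 3 negative at an unadjusted p under 0.05, against 4.63% and 3.05% of all genes, and DESeq2 called 0 members. Brca2 had 140 and 60.7 CPM in deltaPOZ-Vav libraries against 33.4 and 50.0 CPM in Miz1-wt libraries (log2 1.26, SE 0.39, adjusted p = 0.464). Without noICN deltaPOZ-Vav p53-ko replicate 1, the library at 140 CPM, its log2 was 0.53. Cdc45 had 75.2 and 109 CPM in deltaPOZ-Vav libraries against 199 and 139 CPM in Miz1-wt libraries (log2 -0.88, SE 0.30, adjusted p = 0.489), the opposite sign to its value with ICN.

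Kif11, the motor that pushes spindle poles apart, had 457 and 429 CPM in deltaPOZ-Vav libraries against 689 and 510 CPM in Miz1-wt libraries (log2 -0.44, SE 0.19, adjusted p = 0.636). Ccnb2 had 174 and 211 CPM in deltaPOZ-Vav libraries against 107 and 161 CPM in Miz1-wt libraries (log2 0.52, SE 0.24, adjusted p = 0.645). Without noICN Miz1-wt p53-ko replicate 1 the log2 was -0.19 for Kif11 and 0.27 for Ccnb2, and without replicate 2 of that group -0.66 for Kif11 and 0.83 for Ccnb2. Macrophage markers summed to 132 to 198 CPM in deltaPOZ-Vav libraries and 265 to 363 CPM in Miz1-wt libraries, with 11 of 12 below 0, 0 called and 2 lower at an unadjusted p under 0.05. Their part was not tested. Members with both libraries apart were 6 higher (Mcm3, Mcm5, Brca2, Ccnb2, Cenpf, Kif23) and 8 lower (Mcm4, Pcna, Cdc45, Gins1, E2f2, Kif11, Kif20a, Tpx2), against 12.8% and 13.2% of all genes tested, which is near that background.

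Averaged over the 3 backgrounds, deltaPOZ gave 22 of 25 mitotic genes below 0 (median log2 -0.09) and 17 of 22 S-phase genes above 0 (median log2 0.07), again with 0 called by edgeR, against 0.0172% of all genes. At an unadjusted p under 0.05 there were 4 members, against 4.92% of all genes, and DESeq2 called 0. E2f2 had log2 -0.51 (SE 0.19, adjusted p = 0.933), with a lowest, median and highest of 172, 314 and 598 CPM in the 10 deltaPOZ libraries and 237, 407 and 756 CPM in the 6 Miz1-wt libraries. Brca2 had log2 0.52 (SE 0.21), Tpx2 -0.26 (SE 0.10) and Kif11 -0.25 (SE 0.10). Without ICN Miz1-wt p53-wt replicate 2 the log2 of E2f2 was -0.32, and without noICN deltaPOZ-Vav p53-ko replicate 1 that of Brca2 was 0.27. B cell markers stood beside these values: they summed to 13.5 to 188 CPM in deltaPOZ libraries and 9.96 to 115 CPM in Miz1-wt libraries, with 12 of 12 above 0 (median log2 1.68), 0 called and 7 higher at an unadjusted p under 0.05. Their part in the class values was not tested.

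Between ICN deltaPOZ leukaemias with the Lck suffix and those with the Vav suffix (4 against 4 mice) no member was called, and 5 of 22 S-phase genes and 19 of 25 mitotic genes were above 0. edgeR called 0% of all genes, no member had an unadjusted p under 0.05 against 3.15% of all genes, DESeq2 called 0 members, and no member had its sides apart, against 1.6% higher and 1.29% lower of all genes tested. Cenpf, a kinetochore protein, had 391, 460, 313 and 329 CPM in Lck libraries against 275, 398, 248 and 257 CPM in Vav libraries (log2 0.34, SE 0.16, adjusted p = 1). Mki67 had 3368, 2978, 2835 and 2443 CPM in Lck libraries against 2074, 3064, 1914 and 2135 CPM in Vav libraries (log2 0.34, SE 0.19). E2f8 had log2 0.42 (SE 0.21) and Chek1 -0.32 (SE 0.16). Neutrophil markers summed to 160 to 9279 CPM in Lck libraries and 118 to 1607 CPM in Vav libraries, with 12 of 12 above 0, 0 called and 1 higher at an unadjusted p under 0.05. Erythroid markers summed to 3531 to 9041 CPM in Lck libraries and 2510 to 6821 CPM in Vav libraries, with 11 of 11 above 0 and none at an unadjusted p under 0.05. Their part in the member values was not tested.

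Across the 12 ICN libraries, members were more alike within their class than across classes. The median Pearson r of log2 CPM was 0.55 over 231 pairs of S-phase genes and 0.49 over 300 pairs of mitotic genes, against 0.21 over 550 pairs of an S-phase and a mitotic gene. The libraries share depth, cell make-up and genotype between all genes, and so these values describe the 12 libraries and carry no test.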

How the data were processed

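Gene expression was measured by stranded mRNA sequencing (TruSeq) of total RNA from 16 mouse T-ALL samples. The authors deposited 1 table of raw read counts per library, a whole-number count for each of 41214 Ensembl genes. TopHat2 2.0.10, SAMtools, HTSeq and DESeq, with the builds mm10 and GRCm38, are named in the submitters' processing notes. Neither annotation release nor strand setting is given in the sources used here. Rows that name no gene were left out: alignments that are not unique (45.81% to 63.74% of each table's total), no feature (14.22% to 21.5%) and ambiguous (0.1381% to 0.331%). Since non-unique alignments were not counted, genes with close copies are undercounted.

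Symbols came from GENCODE M21 on GRCm38, which held 40340 of the IDs. Totals were 36463524 to 68523196 gene counts per library (median 50171983). All 16 libraries were fitted as 8 groups with edgeR 4.0.16 in R 4.3.3 (filterByExpr, TMM factors 0.952 to 1.05, quasi-likelihood F test, Benjamini-Hochberg adjustment over 17470 genes, called at an adjusted p under 0.05). Every adjusted p in the text comes from this edgeR fit unless DESeq2 (1.42.0) is named. An SE was obtained from F, as the size of a log2 fold change over the root of F. Levels are TMM-scaled CPM. A prior count of 2 was added for log2 CPM. Groups share 1 spread per gene, with 8 residual degrees of freedom. Simulated counts with known changes tested the p53 comparison of the fit. The fit called 39% of 100 genes changed by log2 1 and 92% of 100 genes changed by log2 2. These genes were drawn from all genes tested above a set level.

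The 47 members, the other gene lists and the markers were chosen with earlier results of these data known. Library values are given for fixed examples of each role, for called members and, in comparisons with no call, for the 2 genes of each class with the lowest p. From the other lists, up to 4 called genes per direction, or the gene with the lowest p, are named. Alternatives were RLE size factors, DESeq2, no filter, only the groups compared, other groupings, other prior counts and leaving out each library.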

Additional observations from a re-analysis of the deposited data

How the results depend on the processing

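No paired analysis was possible because the replicate numbers follow the order of the samples and mark no shared animal, litter or day. RLE size factors changed no count of called members. Members called for ICN against no ICN, 4 in all, were 2 with only the groups compared (E2f2, Mki67), 9 with the Lck group added to the ICN side (Mki67, E2f2, Kif23, Ccnb2, Kif11, Cdk1 and Cenpe higher, Foxm1 and Cdc20 lower), 8 with DESeq2 (Mki67, E2f2, Kif23, Kif11, Mcm4 and Ccnb2 higher, Foxm1 and Cdc20 lower), and 4 without a filter, with Ccna2 in place of Kif23 (adjusted p = 0.207). Leaving out 1 library gave 1 to 10 members: 10 without noICN deltaPOZ-Vav p53-ko replicate 1, 2 without ICN Miz1-wt p53-ko replicate 1 or ICN deltaPOZ-Vav p53-ko replicate 1, and 1 without ICN deltaPOZ-Vav p53-ko replicate 2. Mki67 was called in each of these. With both ICN libraries of many non-unique alignments left out, a choice made after seeing the data, 1 member was called, Mki67 (log2 0.89, adjusted p = 0.0274), and the adjusted p was 0.0659 for E2f2, 0.112 for Foxm1 and 0.119 for Kif23. Fitted on only the groups compared, the adjusted p was 0.0903 for Foxm1 and 0.143 for Kif23. The cause was not tested.

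For p53 ko against p53 wt, 0 members were called by edgeR, 2 without a filter (E2f2 with log2 0.61 and adjusted p = 0.0119, Cdc20 with log2 0.55 and adjusted p = 0.034) and 2 with DESeq2 (Cdc20, Mybl2). Without any 1 library 39 to 43 members were above 0, and 43 without both libraries named. For deltaPOZ without ICN, 1 member was called without a filter, Brca2 (log2 1.24, adjusted p = 0.00833). For ICN p53-ko deltaPOZ against Miz1 wt, leaving out 1 library gave 8 to 19 S-phase genes above 0 and 16 to 21 mitotic genes below 0. In ICN p53-wt leukaemias it gave 16 to 22 and 21 to 25, and over the 3 backgrounds 12 to 19 and 16 to 23. Members named for a call or for the lowest p of a comparison kept their sign there when any 1 library was left out. The counts above show that some other members changed sign.

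Counts over all genes moved more. For p53, 34 genes were called, against 1588 without a filter, 1083 with DESeq2, 149 with only the groups compared, 1 among Miz1-wt groups, 6 among deltaPOZ groups, 2 to 132 without 1 library and 4 without both. For ICN, 4194 were called, against 5168 without a filter, 5321 with DESeq2, 5318 with the Lck group added, 2360 with only the groups compared, 2642 without both libraries and 2524 to 4643 without 1 library. For deltaPOZ the counts were 3 (average), 0 (ICN p53 wt), 1 (ICN p53 ko), 0 (no ICN) and 0 (difference), against 502, 211, 464, 746 and 378 without a filter and 134, 16, 127, 233 and 30 with DESeq2, and leaving out 1 library gave 0 to 20, 0 to 1, 0 to 3 and 0 to 108 for the first 4. Lck against Vav called 0, against 277 without a filter and 22 with DESeq2.

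With 2 mice a group, a change of a member can be missed. A p above the threshold does not show equal levels. Bulk counts do not separate the share of cycling cells from their RNA content.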
